A study of Mus musculus with 10 samples.

Results

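The genes described here are 7 that are used to recognise Schwann cells and the neural crest: the transcription factors Tfap2a, Tfap2b, Foxd3 and Egr2, the receptors Ngfr and Erbb3, and the myelin protein gene Pmp22. They were taken as every array probe that carries one of these symbols. Of 16593 genes named on the array, 6 were members, with 12 of the 25697 probes, since no probe was named Erbb3 in the annotation used here. Of these 12 probes, 10 passed the filter on dim probes (2 or more of the 10 arrays with a detection p-value below 0.01), as did 14539 probes in all. Those 10 belong to Tfap2a (3 probes), Tfap2b (3 of 4), Pmp22 (2), Egr2 (1) and Ngfr (1).

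Messenger RNA of mouse cells of strain C57BL/6 was measured on 10 Illumina bead arrays, 2 for each of 5 groups, to ask how induced oligodendrocyte progenitors compare with the pericytes they were made from and with primary cells. The groups were pericytes (PC), which wrap small blood vessels, the samples titled OPC, and induced progenitors made from pericytes (iOPC, titled PC2FiOPC) at passages 5, 15 and 25. The OPC samples have the cell type Oligodendrocyte in their labels, so whether they held progenitors or later cells is not settled by the labels. No genotype, animal age or inducing factor is given in the labels used here, and they do not say whether the 2 arrays of a group came from separate cultures, so every p-value measures the spread between these arrays only.

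Neural crest cells leave the dorsal neural tube and give rise to Schwann cells, melanocytes, peripheral neurons and parts of the skull. AP-2 factors such as Tfap2a and Tfap2b and the forkhead factor Foxd3 act early in this lineage, and ErbB3, the receptor for neuregulin, and the low-affinity neurotrophin receptor p75 (Ngfr) mark migrating crest and immature Schwann cells. Egr2 (Krox20) then drives the peripheral myelin programme, of which Pmp22, a membrane protein of compact peripheral myelin, is a part. Oligodendrocytes, the myelinating cells of the brain, do not need Egr2 and share only some myelin genes with Schwann cells.

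The measurements were deposited as a table of signals with detection p-values and as a table of log2 values, and apart from the PC columns the columns with like names differed in profile. Taken over the 9403 probes that every array detected, the mean correlation between tables was 0.982 for the columns headed PC. The signal columns headed iOPC passage 15 correlated at 0.981 with the value columns headed OPC and at 0.843 with those of their own name. For OPC, iOPC passage 5 and iOPC passage 25 the like-named columns correlated at 0.847, 0.878 and 0.866. No column was reassigned, each comparison is given from the signal table first and the value table second, and directions under headings apart from PC hold only for the table they are given from. Within a group the 2 arrays correlated at 0.995 to 0.997 in the signal table and at 0.908 to 0.995 in the value table, lowest for iOPC passage 5. Between 45.7% and 49.2% of probes were detected per array. On the OPC-headed signal arrays 4 to 5 of 6 OPC markers with a probe were detected, with a log2 summed signal of 12.18 to 12.21. The arrays headed iOPC passage 15 had 6 of 6 and the highest sum, 14.73 to 14.80. Passages 5 and 25 gave 12.56 to 12.60 and 13.06 to 13.17, so among the headings apart from PC the sum was lowest under OPC. The OPC marker sum of the values was highest under OPC, at 15.00 to 15.05. On the PC arrays 4 of 8 pericyte markers were detected, and 1 to 4 on the OPC arrays, 1 to 2 at passage 5, 2 at passage 15 and 1 at passage 25. The log2 summed pericyte signal was lowest under PC, at 9.30 to 9.56, and highest under passage 5, at 10.22 to 10.24. Cspg4 was detected on every array. It was the only pericyte marker detected on OPC replicate 2, passage 5 replicate 1 and both passage 25 arrays. Anpep was detected under PC alone. The part of Cspg4 in the sums was not tested. Of the 4 tested, the signal table called 3 lower and 1 higher than PC under OPC and passages 5 and 25, and 2 and 1 under passage 15. Shares over all genes are given with the gene lists below.

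In the signal table, Egr2, Ngfr and Tfap2a were high under OPC relative to PC and Tfap2b fell steeply under every iOPC heading, while the 2 probes of Pmp22 gave changes of different size. In the value table, the brightest Tfap2a probe and Ngfr were high under all 3 iOPC headings. There Tfap2b was high under every heading except OPC, and Egr2 fell under all 3 iOPC headings. Calls are at an adjusted p under 0.05 (limma, Benjamini-Hochberg over all tested probes), and the counts below are of probes, several of which report the same gene. Against PC, the signal table called 5 of the 10 probes higher and 4 lower under OPC, where 33.4% and 32.1% of all tested probes were called higher and lower. It called 5 higher and 5 lower under iOPC passage 5 (33.8% and 29.8% of all probes), 0 higher and 8 lower under passage 15 (38.5% and 32.9%), and 3 higher and 5 lower under passage 25 (34.3% and 35.7%). The value table called 0 higher and 7 lower under OPC (28.0% and 24.1%). It called 4 higher and 1 lower under each of passage 5 (26.7% and 23.1%), passage 15 (26.4% and 21.9%) and passage 25 (26.2% and 22.4%). With shares this high among all probes a count of calls says little about these genes, and the sizes below carry the description.

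Against OPC, the signal table called 0 probes higher and 5 lower at iOPC passage 5 (19.2% of all probes higher and 17.2% lower), 0 and 10 at passage 15 (34.4% and 30.0%), and 0 and 10 at passage 25 (24.6% and 28.1%). The value table called 9 higher and 1 lower at passage 5 (22.8% and 21.7%), 9 and 1 at passage 15 (22.4% and 21.1%), and 8 and 1 at passage 25 (22.2% and 21.3%). The probe lower in each of these value comparisons was that of Egr2. Between passages, the signal table called 0 higher and 10 lower for passage 15 against 5 (31.0% and 28.9%), 9 higher and 0 lower for 25 against 15 (31.8% and 37.9%), and 4 higher and 4 lower for 25 against 5 (24.4% and 29.1%). In the value table limma called 0 of the 10 in each of these comparisons, where the shares of all probes were 2.46% and 4.24%, 0.0757% and 0.00688%, and 2.23% and 3.75%. There, 3, 0 and 3 of the 10 had an unadjusted p under 0.05, and fitting with a variance trend and robust estimation called 1. Of the 10 signal calls for passage 15 against 5, the 3 of Tfap2b compared levels below background on both sides (-0.39, -0.38 and -0.23). Ngfr (-0.29) was detected on 1 passage 5 array and on no passage 15 array. The calls of Ngfr and of Tfap2b probes ILMN_1223731 and ILMN_3151298 were lost without background correction and with an offset of 50.

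**Figure D1:**
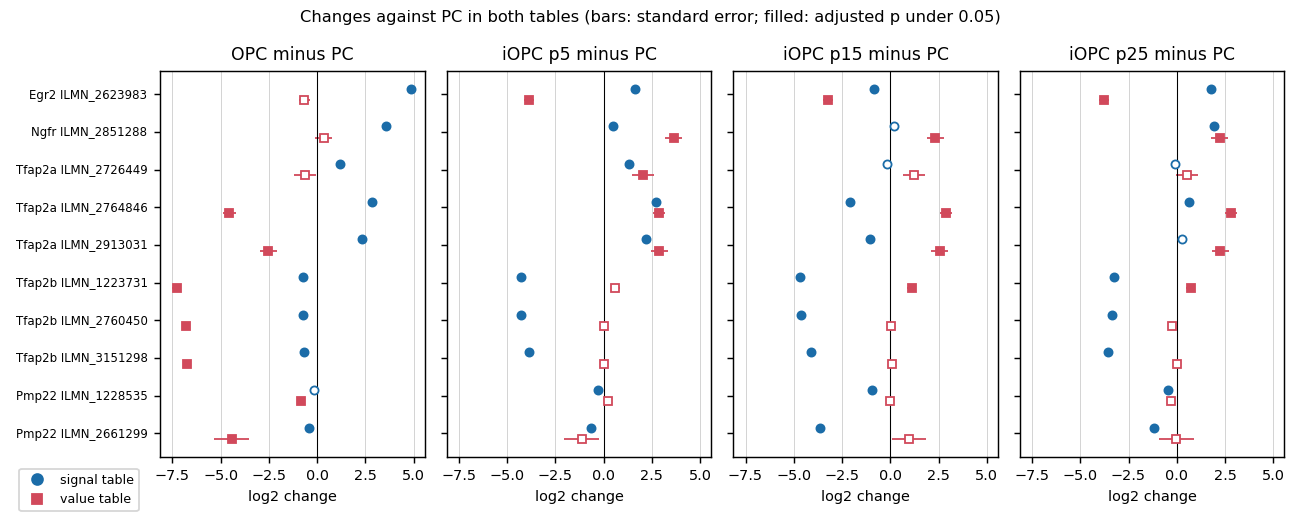
Log2 change of each tested probe against PC (x axis, log2 units) under OPC and iOPC passages 5, 15 and 25, from the signal table (circles) and the value table (squares). Bars are the standard error of the change, and filled symbols have an adjusted p under 0.05. The 3 Tfap2b probes lie near -4 in the signal table under passage 5 and near 0 in the value table.

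Egr2 (chr10:67534469-67542188, GRCm38.p6) was detected on all 10 signal arrays. Its promoter is shown because its start sites include short windows with a CArG box, the site of serum response factor, which drives Egr genes after growth factor stimulation. RefSeq lists 5 windows of 250 bases before a start of Egr2 in the table used here, 3 of which overlap and hold the same CArG box. One of them, at chr10:67537619-67537868 on the plus strand, is given 5′ to 3′ with the CArG box, bases 72 to 63 before the start, in capitals.
Egr2 promoter: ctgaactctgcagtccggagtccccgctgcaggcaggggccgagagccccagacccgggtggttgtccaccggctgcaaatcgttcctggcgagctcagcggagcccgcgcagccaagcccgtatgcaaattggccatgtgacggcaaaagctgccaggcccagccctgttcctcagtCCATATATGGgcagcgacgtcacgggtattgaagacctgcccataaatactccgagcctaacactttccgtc
The 3 motifs searched on both strands were GCCNNNGGC (AP-2), GCGNGGGCG (Egr) and the CArG box, and 13.7%, 4.70% and 1.47% of 32851 windows of mouse genes held them. Of the 14 windows of the members, 7 held a match, all of them in Egr2 (5 of 5 windows, 4 with a CArG box and 1 with an AP-2 match) and Pmp22 (2 of 4, AP-2 only), and none matched the Egr motif. A match describes letters in a window and says nothing about binding.

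The log2 signals of Egr2 were 6.70 and 6.90 under PC, 11.63 and 11.70 under OPC, 8.41 and 8.45 under iOPC passage 5, 6.00 and 5.96 under passage 15, and 8.59 and 8.52 under passage 25. OPC stood highest and passage 15 lowest, and no group overlapped another. Against PC the signal rose by 4.86 under OPC (SE 0.09, 29.1-fold, limma adjusted p 3.5e-11), by 1.63 under passage 5 (adjusted p 8.92e-08) and by 1.75 under passage 25 (adjusted p 3.78e-08). It was lower than PC under passage 15 by a log2 change of -0.82 (adjusted p 1.29e-05). Passages 5 and 25 differed by 0.12 (adjusted p 0.271), the only neighbours in the order of levels that did not pass the test. RNA of a whole culture was measured, so fewer cells of a type and less RNA per cell cannot be told apart in any of these results.

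The log2 values of Egr2 in the authors' table were 6.51 and 6.66 under PC, 6.00 and 5.84 under OPC, 2.28 and 3.13 under passage 5, 3.42 and 3.28 under passage 15, and 2.73 and 2.87 under passage 25. PC and OPC were high and the 3 iOPC headings low, without overlap. The iOPC values lay near or below the column median of 3.29. No detection p-values come with the values, so no lower limits are set for them here or below. The sizes of value changes that rest on levels this low are uncertain, and the part of background in them was not tested. The changes against PC were -3.88 (SE 0.27, adjusted p 2.4e-05), -3.24 (adjusted p 5.67e-05) and -3.78 (adjusted p 2.51e-05) for passages 5, 15 and 25. The change of -0.67 under OPC did not pass the test (adjusted p 0.0739), and passed it without either passage 5 array (adjusted p 0.00553). A group left with 1 array is assumed, here and below, to vary like the other groups. Against OPC, Egr2 changed by -3.24, -5.69 and -3.11 at passages 5, 15 and 25 in the signals, and by -3.22, -2.57 and -3.12 in the values. The columns under these headings differ in profile between the tables, so these changes do not compare like with like.

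**Figure D2:**
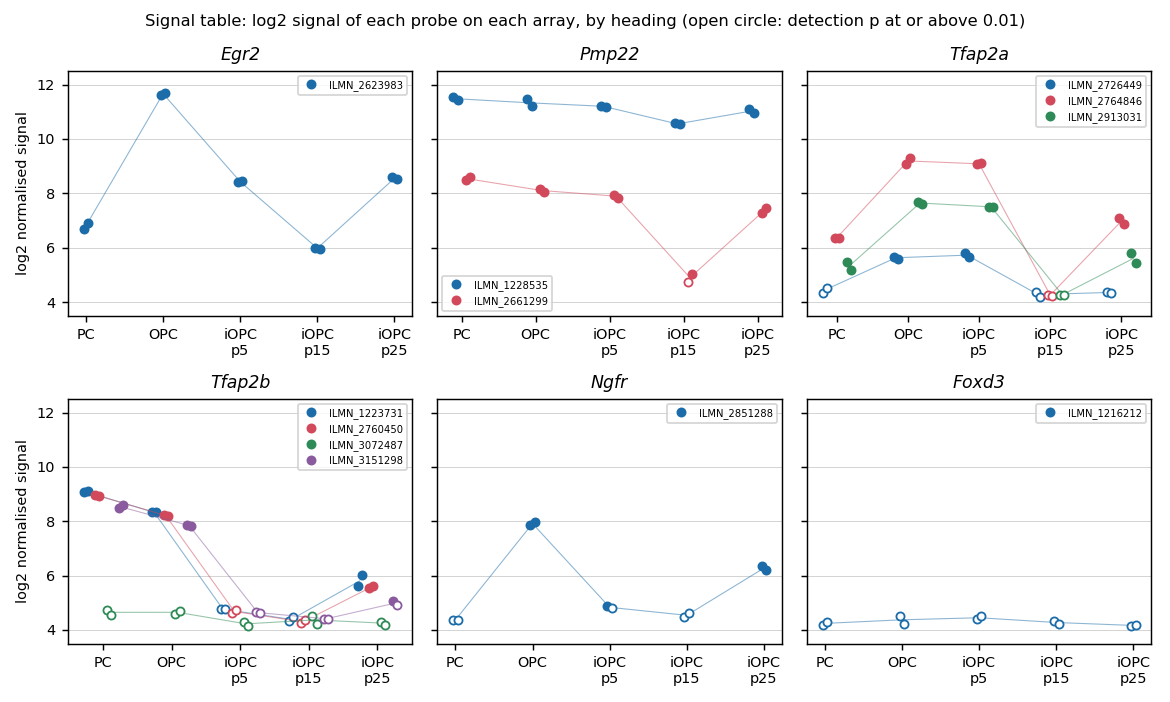
Log2 normalised signal (y axis) of all 12 probes on each array, by heading. Each point is an array, lines join group means, and open circles have a detection p at or above 0.01. Egr2 and Ngfr peak under OPC, and 3 Tfap2b probes are high under PC and OPC alone.

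Ngfr (chr11:95568818-95587698), the p75 neurotrophin receptor, was detected on both OPC arrays, both arrays of passage 25 and 1 of 2 arrays of passage 5, and on no PC or passage 15 array. Its log2 signals were 4.37 and 4.37 under PC, 7.85 and 7.98 under OPC, 4.87 and 4.80 under passage 5, 4.46 and 4.62 under passage 15, and 6.35 and 6.20 under passage 25. OPC was highest, passage 25 next, and the other 3 headings were close together. For a group below background on all its arrays, the fold is given as a lower limit, with each array of that group set to the lowest level at which any probe counted as detected, or to the probe's own level where higher. By that measure Ngfr was at least 7.83-fold higher under OPC than under PC (adjusted p 3.17e-10) and at least 2.51-fold higher under passage 25 than under PC (adjusted p 2.63e-08). Passage 5, detected on 1 array, differed from PC by a fitted 0.46 (limma adjusted p 0.00139). Its mean level of 4.83 lay below the levels set for the PC arrays, 4.93 and 4.96, so by that measure no rise is shown. Passage 15 and PC were both below background, so no fold is given for either passage.

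The log2 values of Ngfr were 2.29 and 1.99 under PC, 2.14 and 2.82 under OPC, 6.45 and 5.09 under passage 5, 4.35 and 4.61 under passage 15, and 4.25 and 4.48 under passage 25. All 3 iOPC headings lay above PC and OPC, which overlapped and lay below the column median of 3.29. Against PC the rises were 3.63 (SE 0.43, adjusted p 0.00038), 2.34 (adjusted p 0.0034) and 2.23 (adjusted p 0.00421) for passages 5, 15 and 25, and OPC differed by 0.34 (adjusted p 0.557). Passages 15 and 25 also exceeded OPC, by 2.00 (adjusted p 0.00819) and 1.89 (adjusted p 0.0104). Those calls were lost without OPC replicate 1, with adjusted p 0.0595 and 0.0726, and the call for passage 25 also without its replicate 2 (adjusted p 0.0603) and that for passage 15 without its replicate 2 (adjusted p 0.0508).

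Tfap2a (chr13:40713802-40738238), an AP-2 factor needed early in the neural crest, has 3 probes of which ILMN_2764846 was brightest. Its log2 signals were 6.38 and 6.35 under PC, 9.08 and 9.31 under OPC, 9.07 and 9.10 under passage 5, 4.27 and 4.24 under passage 15, and 7.08 and 6.87 under passage 25. OPC and passage 5 were high and overlapped, passage 25 lay between them and PC, and both arrays of passage 15 were below background. The rises against PC were 2.83 under OPC (SE 0.10, 7.12-fold, adjusted p 3.39e-09), 2.73 under passage 5 (adjusted p 4.3e-09) and 0.62 under passage 25 (adjusted p 0.000314). Under passage 15 it was at least 2.97-fold lower than under PC (adjusted p 1.87e-08). OPC and passage 5 differed by -0.11 (adjusted p 0.466).

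The other 2 Tfap2a probes also rose under OPC and passage 5, and differed from the brightest at later passages. For ILMN_2913031 the rises over PC were 2.33 under OPC and 2.19 under passage 5, while passage 25 overlapped PC and differed by 0.29 (adjusted p 0.0632), and passage 15 was at least 1.44-fold lower (adjusted p 3.22e-05). For the dimmest probe, ILMN_2726449, detected on 4 arrays, Tfap2a was at least 1.61-fold higher under OPC and at least 1.72-fold higher under passage 5 than under PC, and was below background under PC and passages 15 and 25. Melanocyte markers, from another crest-derived lineage, differed between the headings too, in another order: 0 of 6 with a probe were detected on PC arrays, 3 on OPC, 3 on passage 5, 1 on passage 15 and 5 on passage 25. Their log2 summed signal was 6.87 to 6.94 under PC, 8.82 to 8.87 under OPC, 8.21 to 8.40 under passage 5, 7.37 to 7.42 under passage 15 and 10.44 to 10.45 under passage 25. In the value table the sums were 4.63 to 4.64, 6.42 to 6.73, 7.26 to 7.61, 6.21 to 6.81 and 6.86 to 6.96 under the same headings. Of 5 fibroblast markers 4 were detected under PC, 4 to 5 under OPC, 4 under passages 5 and 25, and 1 (Pdgfra, also an OPC marker) under passage 15. Their log2 summed signal was 10.98 to 11.12 under PC, 13.35 to 13.43 under OPC and 12.58 to 12.61 under passage 5. It was 12.75 to 12.83 under passage 15 and 11.30 to 11.39 under passage 25. The sum was highest under OPC and next highest under passage 15, where Egr2 and the brightest Tfap2a probe were lowest. Under passage 15 the signal table called 1 of the 5 higher and 4 lower than PC (39.9% and 33.4% of all genes). The fibroblast sums of the values were also highest under OPC, at 12.95 to 13.07, although most of the genes fell there. Of the 5, the value table called 1 higher and 4 lower than PC under OPC (29.8% and 25.1% of all genes), with a median change of -6.13. The part of these markers in the results was not tested.

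In the value table the brightest Tfap2a probe read 6.05 and 6.23 under PC, 1.16 and 2.02 under OPC, 9.22 and 8.76 under passage 5, 9.26 and 8.78 under passage 15, and 8.97 and 8.97 under passage 25. The iOPC headings were high and overlapped one another, PC was intermediate and OPC lowest. Both OPC values lay below the column median of 3.29, so the sizes of changes that involve OPC are uncertain. Against PC the changes were -4.55 under OPC (SE 0.32, adjusted p 1.5e-05) and 2.85, 2.88 and 2.83 under passages 5, 15 and 25 (adjusted p 0.000257, 0.000236 and 0.000256). Under passages 5, 15 and 25 the value exceeded OPC by 7.40, 7.43 and 7.38, whereas in the signal table passages 5 and 25 differed from OPC by -0.11 and -2.21 and passage 15 was at least 21.2-fold lower. At passage 5 the rise of the brightest probe over PC was 2.73 in the signals and 2.85 in the values, whose passage 5 columns differ in profile. Probe ILMN_2913031 changed against PC by -2.54 under OPC and by 2.88, 2.57 and 2.25 under passages 5, 15 and 25, all called. The dimmest probe, ILMN_2726449, was called under passage 5 alone (2.03, limma adjusted p 0.0198). Under OPC and passages 15 and 25 it changed by -0.65, 1.24 and 0.54 (adjusted p 0.381, 0.110 and 0.466).

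**Figure D3:**
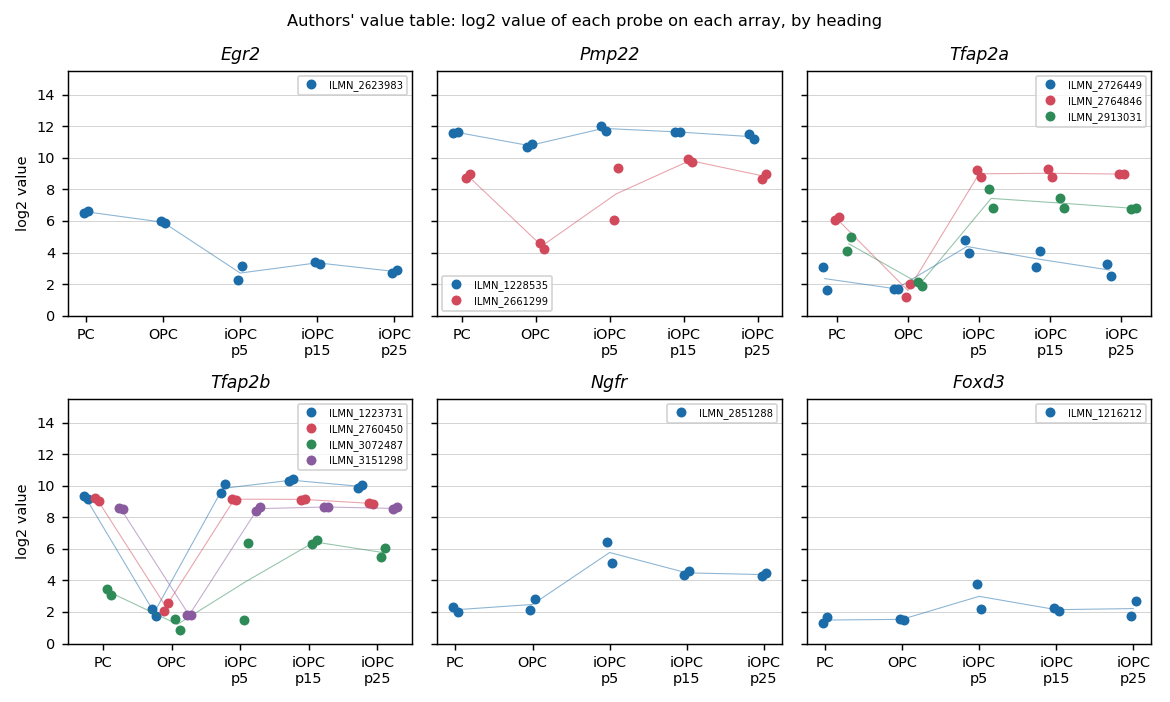
Log2 value in the authors' table (y axis) of all 12 probes on each array, by heading. Each point is an array and lines join group means. Tfap2a probes ILMN_2764846 and ILMN_2913031, and 3 Tfap2b probes, fall under the heading OPC. The 2 passage 5 arrays lie apart for Pmp22 ILMN_2661299 and Tfap2b ILMN_3072487.

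Tfap2b (chr1:19208908-19238845), a second AP-2 factor, also known from kidney and limb development, was lower than PC under every other heading in the signal table. The brightest probe, ILMN_1223731, read 9.07 and 9.10 under PC, 8.33 and 8.32 under OPC, 4.77 and 4.78 under passage 5, 4.31 and 4.46 under passage 15, and 5.60 and 6.01 under passage 25. PC was highest and OPC somewhat lower, and passages 5 and 15 were below background on all arrays. Against PC, Tfap2b was lower under OPC by a log2 change of -0.76 (SE 0.12, adjusted p 0.000313), at least 19.1-fold lower under passage 5 (adjusted p 5.03e-10) and at least 19.6-fold lower under passage 15 (adjusted p 1.5e-10). Under passage 25 the change was -3.28 (adjusted p 3.12e-09). The probes ILMN_2760450 and ILMN_3151298 gave -0.74 and -0.69 under OPC and -3.37 and -3.55 under passage 25, and were at least 17.4-fold and at least 13.1-fold lower under passage 5.

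The value table gave the same probe of Tfap2b 9.33 and 9.15 under PC, 2.16 and 1.77 under OPC, 9.56 and 10.10 under passage 5, 10.27 and 10.43 under passage 15, and 9.85 and 10.08 under passage 25. OPC was low and the other 4 headings high, with no overlap between OPC and any of them. Both OPC values lay below the column median of 3.29, so the size of the change under OPC is uncertain. The change under OPC was -7.28 (SE 0.23, adjusted p 4.12e-07), and those under passages 5, 15 and 25 were 0.59 (adjusted p 0.0734), 1.11 (adjusted p 0.00628) and 0.72 (adjusted p 0.0376). The last of these was lost with the replicate number as a block (adjusted p 0.0534), with no filter on dim probes (adjusted p 0.0812) and without PC replicate 1 or 2 (adjusted p 0.0886 and 0.162), passage 15 replicate 1 or 2 (0.0545 each) or passage 25 replicate 1 or 2 (0.0716 and 0.168). The other tested probes changed by -6.78 and -6.75 under OPC and by at most 0.24 in size under any iOPC heading. Tfap2b was thus lowest under the iOPC headings in the signals and under OPC in the values.

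Pmp22 (chr11:63128982-63159547), the peripheral myelin protein gene, which fibroblasts and endothelial cells also transcribe, has 2 tested probes. One of its 4 windows, at chr11:63132553-63132802 on the plus strand of GRCm38.p6 (RefSeq), is given because it alone among all member windows holds 2 AP-2 matches, in capitals, at bases 158 to 150 and 39 to 31 before the start.
Pmp22 promoter: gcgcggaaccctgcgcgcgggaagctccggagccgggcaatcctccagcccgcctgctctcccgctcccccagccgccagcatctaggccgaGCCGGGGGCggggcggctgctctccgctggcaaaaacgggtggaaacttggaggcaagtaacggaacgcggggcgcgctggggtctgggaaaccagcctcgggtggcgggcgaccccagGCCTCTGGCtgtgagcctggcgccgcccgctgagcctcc
Probe ILMN_1228535 read 11.55 and 11.42 under PC, 11.46 and 11.20 under OPC, 11.22 and 11.18 under passage 5, 10.57 and 10.54 under passage 15, and 11.10 and 10.96 under passage 25. PC and OPC overlapped and passage 15 lay lowest. Against PC the changes were -0.15 under OPC (adjusted p 0.223), -0.28 under passage 5 (adjusted p 0.0362), -0.93 under passage 15 (adjusted p 1.51e-05) and -0.45 under passage 25 (adjusted p 0.00269). The call at passage 5 was lost without PC replicate 1, either passage 5 array or either passage 15 array (adjusted p 0.171, 0.0833, 0.129 and 0.0515 for both of the last). With median scaling in place of quantile normalization the change under OPC was -0.38 and passed the test (adjusted p 0.0123).

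The second Pmp22 probe, ILMN_2661299, read 8.48 and 8.59 under PC, 8.15 and 8.05 under OPC, 7.95 and 7.84 under passage 5, 4.76 and 5.04 under passage 15 and 7.26 and 7.46 under passage 25. It was detected on 1 of 2 passage 15 arrays. Its fitted change against PC under passage 15 was -3.64 (SE 0.11, limma adjusted p 6.49e-10), where the first probe gave -0.93, so the 2 probes disagree on the size. Under OPC it was called lower (-0.43, adjusted p 0.00745), where the first probe was not called. Without OPC replicate 2 that change was -0.38. It was also lower under passage 5 (-0.64, adjusted p 0.000688) and passage 25 (-1.17, adjusted p 6.28e-06). In the value table the first probe read 11.60 and 11.67 under PC, 10.70 and 10.85 under OPC and between 11.20 and 12.03 under the iOPC headings, and changed under OPC by -0.86 (adjusted p 0.00492). The second read 8.75 and 8.96 under PC and 4.62 and 4.21 under OPC, a change of -4.44 (SE 0.89, adjusted p 0.00423). Its 2 passage 5 values, 6.04 and 9.37, stood far apart, and passage 5 against PC was not called (-1.15, adjusted p 0.319). With replicate 1 as the lone passage 5 array it passed the limma test (-2.81, adjusted p 0.000106), on the spread of the other groups, and with replicate 2 alone it was 0.52 (adjusted p 0.119). Between PC and passages 15 and 25 the first probe differed by 0.01 and -0.29 (adjusted p 0.978 and 0.219).

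Foxd3 (chr4:99656299-99658671), a forkhead factor of premigratory crest, was not well above background on any array, with raw signals of 86.4 to 108, and was not tested. Its values were 1.30 and 1.68 under PC, 1.58 and 1.48 under OPC, 3.78 and 2.20 under passage 5, 2.23 and 2.06 under passage 15 and 1.75 and 2.69 under passage 25. With no filter on dim probes the largest difference from PC, 1.50 under passage 5, had an adjusted p of 0.0641. The Tfap2b probe ILMN_3072487 was also never detected, and its values at passage 5 were 1.48 and 6.39. Erbb3 (chr10:128567523-128589635) was not analysed here.

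Setting the signal columns headed iOPC passage 15 beside the value columns headed OPC, whose profiles were close, gives these changes against PC. Egr2 changed by -0.82 and -0.67 (the latter not called) and the Pmp22 probes by -0.93 and -0.86 and by -3.64 and -4.44. The brightest Tfap2a probe was at least 2.97-fold lower in the signals and changed by -4.55 in the values, and the brightest Tfap2b probe was at least 19.6-fold lower and changed by -7.28. Ngfr was below background on both sides in the signals and differed by 0.34 in the values (not called). Both comparisons use the PC columns.

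Schwann cell markers were read beside these genes. The 5 with a named probe were Egr2, Ngfr, Cdh19, Pmp2 and Dhh. On signal arrays 1 of 5 was detected under PC, 5 under OPC, 4 to 5 under passage 5, 2 under passage 15 and 5 under passage 25, and their log2 summed signal was 7.58 to 7.64, 11.85 to 11.91, 9.22 to 9.23, 7.44 to 7.47 and 9.55 to 9.59. Egr2 and Ngfr are among the 5, and Egr2 is the largest term of the signal sum under each heading, so these sums are no separate reading of the members. Apart from them, Cdh19, Pmp2 and Dhh were detected on no PC array and on both arrays of OPC and of passages 5 and 25, and under passage 15 Dhh alone was detected. The sums of the values were 6.81 to 6.98, 6.83 to 6.85, 8.49 to 8.53, 7.85 to 7.95 and 7.89 to 8.03. Cell-identity markers of microglia were detected on no array, and endothelial markers on at most 1 of 4 under PC. Their part in the results was not tested.

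**Figure D4:**
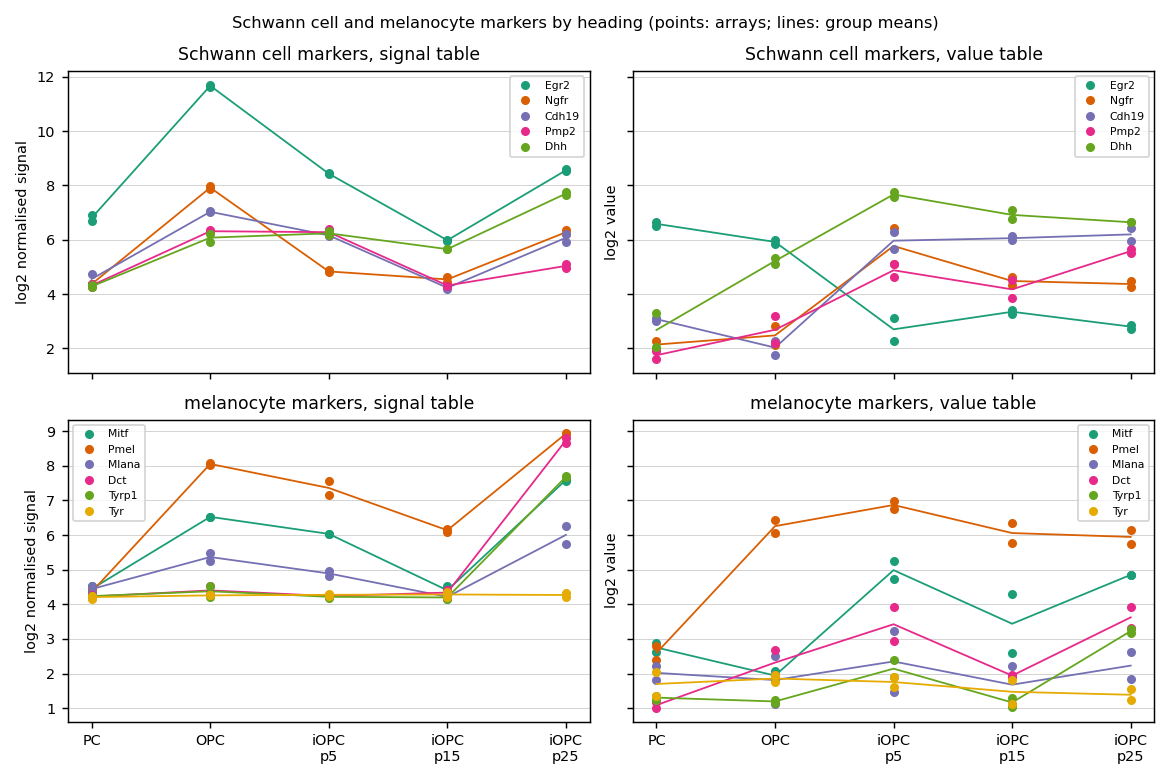
Log2 signal (left) and log2 value (right) of the 5 Schwann cell markers and the 6 melanocyte markers with a probe, on each array by heading, with lines joining group means. The signals of Egr2 and Ngfr peak under OPC, and Dct and Tyrp1 were detected under iOPC passage 25 alone in the signal table.

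Of a list of 42 Schwann lineage genes, which holds none of the 7 members, 37 had a probe and 34 were tested. Against PC the signal table called 24 higher and 7 lower under OPC, 20 and 7 under passage 5, 15 and 11 under passage 15, and 24 and 8 under passage 25, where 34.6% and 32.6%, 35.3% and 30.4%, 39.9% and 33.4%, and 36.4% and 35.3% of all genes were called higher and lower. Median changes were 1.57, 0.55, 0.05 and 1.75 over the list, and 0.02, 0.05, 0.06 and 0.01 over all genes. The value table called 16 higher and 8 lower under OPC and 25, 22 and 21 higher with 5 lower each under passages 5, 15 and 25 (29.8% and 25.1%, 29.1% and 23.3%, 27.8% and 23.4%, and 28.0% and 23.4% of all genes), with medians of 0.36, 2.41, 1.67 and 1.54 against 0.09, 0.11, 0.08 and 0.09. Many listed genes are shared with oligodendrocytes, so the counts do not separate the 2 lineages. Among them Mag, a myelin-associated adhesion protein, was at least 222-fold higher under passage 25 than under PC in the signals and rose by 9.60 in the values. Ugt8a, a myelin lipid enzyme, was at least 97.7-fold higher and rose by 7.58. Emp1, a relative of Pmp22, changed by -8.33 under passage 15 in the signals and -9.53 under OPC in the values.

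Of 52 neural crest genes, 44 had a probe and 31 were tested. Against PC the signal table called 12 higher and 14 lower under OPC, 12 and 16 under passage 5, 9 and 16 under passage 15, and 10 and 17 under passage 25, and in the value table the counts were 6 and 15, 5 and 14, 4 and 15, and 5 and 16, with the shares of all genes called as above. The list medians ran from -0.26 to -1.36 in the signals and from -0.58 to -1.30 in the values. Ednrb, the endothelin receptor of crest progenitors, was at least 236-fold higher under passage 15 than under PC in the signals and rose by 10.84 under OPC in the values. Under passage 25 Dlx1 was at least 19.9-fold lower in the signals and changed by -6.36 in the values. Sox9, which is active in crest and in glial progenitors, was below background under passage 25 in the signals and changed by -7.16 under passage 25 in the values.

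Of 37 genes tied to ErbB, Egr and AP-2 factors and to p75, 30 had a probe and 21 were tested. Against PC the signals gave 10 higher and 8 lower under OPC, 6 and 11 under passage 5, 8 and 10 under passage 15 and 6 and 10 under passage 25, where 34.6% and 32.6%, 35.3% and 30.4%, 39.9% and 33.4%, and 36.4% and 35.3% of all genes were called. The list medians were 0.16, -0.62, -0.08 and -0.33. Counts from the value table were 8 and 8, 4 and 11, 4 and 10, and 4 and 11 (29.8% and 25.1%, 29.1% and 23.3%, 27.8% and 23.4%, and 28.0% and 23.4% of all genes), with medians of -0.15, -0.97, -0.47 and -1.53. Tfap2c, another AP-2 gene, rose by 4.02 under passage 5 and by 1.17 under OPC in the signals, and fell by 1.66 under OPC and by 1.64 under passage 25 in the values. In the signals Egfr, an ErbB receptor, was at least 7.84-fold, 7.73-fold and 7.17-fold lower than PC under OPC and passages 5 and 25 and rose by 1.17 under passage 15. Its values changed by 1.21, -5.92, -6.23 and -5.77 under OPC and passages 5, 15 and 25.

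For the brightest probe of each member, the genes with the most similar course were sought. The measure was the mean absolute difference of centred log2 levels over the 10 arrays. The genes searched were those whose brightest probe spanned at least 1 log2 unit, 5073 or 5074 among the signals and 6552 among the values. In the signals the nearest were Ier3 (0.182), Casp4 (0.331) and Atp8b1 (0.356) for Tfap2a, Gpr176 (0.419), Il33 (0.437) and Klf2 (0.457) for Tfap2b, and Fos (0.173), Cxcl2 (0.324) and Cdsn (0.360) for Ngfr. Egr2 lay nearest Cxcl5 (0.481), Cxcl2 (0.491) and Has2 (0.499), and Pmp22 nearest Chordc1 (0.0953), Mtdh (0.0973) and Polm (0.0979). In the values Tfap2a lay nearest Lpar1 (0.207), Mettl24 (0.252) and Ptpn6 (0.490), and Tfap2b nearest Xist (0.232), Plin3 (0.327) and Serpinh1 (0.422). Other probes of a gene could lie nearest other genes. In the signals these were Sec16b for Tfap2a ILMN_2913031, Aebp2 for Tfap2a ILMN_2726449 and Ly96 for Pmp22 ILMN_2661299. The other tested Tfap2b probes again lay nearest Gpr176. These likenesses rest on 10 arrays that share headings.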

How the data were processed

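Arrays were grouped by sample title. The authors deposited signal intensities, per the file headers not normalized, with a detection p-value per probe, and the deposited value table holds log2 values whose quantiles are the same in every column (median 3.29), with the background correction not given in the sources used here. BeadStudio 3.2, RMA and lumi are named in the submitters' processing notes with no role. The labels also mention a two-round amplification kit for sorted transplanted cells, without saying whether these arrays held such RNA. Probes were named from a platform annotation (23978 with 1 symbol, 0 several, 1719 none; 23962 through Entrez), and gene positions are RefSeq's on GRCm38.p6. No unused per-sample columns (0) were present.

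Signals were corrected with neqc (limma 3.58.1, R 4.3.3, offset 16, with 798 negative controls as the steps of the detection p-values imply), then quantile normalization and log2 were applied, so folds of dim probes are understated. Both tables were fitted alike with lmFit and eBayes (mean per group, 5 residual degrees of freedom), 10 contrasts, two-sided, adjusted over 14539 probes. Lists use the brightest probe per gene, 9778 genes. Mean signal per array was 268 to 388, and the number of arrays limits the precision. The procedure was tested on simulated data. Genes named are all member probes, up to 6 list genes with the largest called change (some shown), and the 3 nearest genes by course. Members and lists were chosen with earlier results of these data known. The main fit did not pair arrays by replicate number. Over the 10 pairs of groups, the differences of replicate 1 minus replicate 2 correlated at -0.04 to 0.13 in the signals and -0.11 to 0.10 in the values. With 2 arrays a group, such correlations cannot exclude a pairing. Alternatives covered background correction, offset, scaling, filters, probe choice, variance model, fold threshold, replicate block, and leaving out arrays. Figures used matplotlib 3.10.9 in Python 3.11.15.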

Additional observations from a re-analysis of the deposited data

Results flagged for a closer look

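In the signal table, changes against PC had opposite signs at different passages for 3 probes, with the difference itself tested by limma. Both Tfap2a probes were below background on the arrays of passage 15, so their fitted changes there rest on floor levels and the folds are given as limits. For Tfap2a probe ILMN_2764846 the fitted change was -2.11 at passage 15 and 2.73 at passage 5, a difference of -4.83 (adjusted p 6.89e-11), and 0.62 at passage 25, a difference of 2.72 from passage 15 (adjusted p 3.21e-09); passage 15 was at least 2.97-fold lower than PC, at least 19.7-fold lower than passage 5 and at least 4.56-fold lower than passage 25. Tfap2a probe ILMN_2913031 had fitted changes of -1.05 at passage 15 and 2.19 at passage 5, a difference of -3.24 (adjusted p 6.34e-09), and was at least 1.44-fold lower than PC and at least 6.56-fold lower than passage 5. For Egr2 the changes were -0.82 at passage 15, 1.63 at passage 5 and 1.75 at passage 25, giving differences of -2.45 (adjusted p 3.33e-09) and 2.57 (adjusted p 1.84e-09). All 5 involve the signal columns headed iOPC passage 15, whose profiles matched the value columns headed OPC, and in the value table none of these 3 probes was called between passages.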

How the results depend on the processing

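Calls over the 10 member probes were counted as pairs of probe and contrast. There were 35 of 40 possible against PC, 25 of 30 against OPC and 27 of 30 between passages in the signal table. In the value table the counts were 22, 29 and 0 of the same totals. The shares of all probes called in each comparison are given above. With 1 probe per gene, and so 5 probes, they were 18, 13 and 13 in the signals and 14 and 15 in the values. Requiring at least 2-fold left 17 signal calls between passages. A variance trend with robust estimation gave 1 value call between passages, and leaving out iOPC passage 5 replicate 2 gave 7, with the lone array left assumed to vary like the other groups. Leaving out each array in turn moved the counts over 34 to 36, 24 to 25 and 24 to 27 in the signals and 20 to 25, 23 to 29 and 0 to 7 in the values. With the replicate number as a block they were 36, 25 and 27 in the signals and 21, 29 and 0 in the values, and the calls it changed were Tfap2a ILMN_2913031 at passage 25 against PC in the signals (0.29, adjusted p 0.0429) and Tfap2b ILMN_1223731 at passage 25 against PC in the values (0.72, adjusted p 0.0534). No result reversed. Of the single-probe results under all alternatives, 2008 signal results kept their side of the threshold, 57 lost a call and 5 gained one, and 1619, 35 and 16 did so in the values. Over all probes, a 2-fold threshold cut the signal calls to 589 from 5288 (passage 5 against OPC) and to 3058 from 9523 (OPC against PC), and the other signal comparisons by similar or smaller factors. Value calls between passages 15 and 5 (974) were 407 without a filter, 1847 with a variance trend and 4793 without passage 5 replicate 2, and those between 25 and 5 (869) were 419, 1436 and 4195. Without OPC replicate 1 the value calls of passage 15 against OPC fell to 4122 from 6319. The cause was not tested.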

Other observations

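Markers of other cell types differed between the like-named columns as well. Of 5 astrocyte markers with a probe, 4 were detected on the signal arrays headed iOPC passage 15. The other, Gfap, was not, though it was detected on every array of OPC and of passages 5 and 25. The summed log2 signal was 12.55 to 12.60 under passage 15, 7.13 to 7.25 under PC and 9.07 to 9.08 under OPC. It was 8.01 to 8.07 under passage 5 and 8.11 to 8.17 under passage 25. Under passage 15 the signal table called 4 higher and 0 lower than PC (39.9% and 33.4% of all genes). In the value table the highest astrocyte sums, 12.82 to 12.95, stood under the heading OPC. Oligodendrocyte markers were highest under iOPC passage 25 in both tables, at 14.02 to 14.13 in the signals and 13.49 to 13.54 in the values.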
